A study of Homo sapiens with 12 samples.

Results

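The transcriptional response of HCT116 cells, a line derived from a human colon cancer, to 8 h of hydrogen peroxide (H2O2) was described from 4 RNA-seq libraries. The cells received a control IgG with 100 µM H2O2 (2 libraries) or the control IgG alone (2 libraries). The labels give 8 h for the H2O2 libraries and no time for those with IgG alone. Whether the IgG cells were mock treated for that time is therefore unknown. All genes with at least 1 TPM (a transcript abundance scaled to gene length and to the library total) in 2 or more of the 12 libraries of the study were kept, with small RNA genes of the SNORA, SNORD, SCARNA and MIR families left out. This gave 13902 genes of 23686 in the table. No expression difference was used to choose them. The study also held 2 HCT116 libraries with an antibody named anti-Hsp60N plus H2O2, and the same 3 treatments of MDA-MB-231, a line derived from a breast cancer, with 2 libraries each. The growth medium held 10% fetal bovine serum in both lines and was, for HCT116, the one that the labels spell MyCoy 5a and, for MDA-MB-231, DMEM, so that line and medium cannot be told apart. The labels do not say whether the 2 libraries of a group came from separate cultures. The p-values therefore measure only how these samples scatter, and that scatter may be technical.

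Hydrogen peroxide is a diffusible oxidant that cells remove with peroxiredoxins, glutathione peroxidases and catalase. Oxidative damage to proteins and amino acid shortage are read by kinases that phosphorylate the translation factor eIF2, which slows general translation and favours synthesis of the transcription factor ATF4; this is the integrated stress response. Damage to DNA stabilises p53, oxidised KEAP1 releases NRF2 to activate antioxidant genes, and misfolded cytosolic proteins release HSF1 to activate heat shock genes.

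The 4 libraries listed between 12434 and 12653 genes at 1 TPM or more, and their 10 most abundant genes held 6.53% to 7.21% of the total. Pearson's r of log2(TPM + 1) across genes was 0.997 within the H2O2 pair, 0.996 within the IgG pair and 0.988 to 0.990 between the groups. The epithelial marker EPCAM had 335 and 355 TPM with H2O2 and 370.1 and 332 TPM with IgG, and CDX2, an intestinal transcription factor, had 14.5 and 13.6 TPM with H2O2 and 17.2 and 15.1 TPM with IgG. The more differentiated colon markers CDX1, VIL1, LGALS4 and GPA33 did not pass the filter. The summed level of the whole list of 16 colon epithelial markers was 6508 and 6366 TPM with H2O2 and 6472 and 6579 TPM with IgG. Of 10 immune markers, 3 passed the filter and none was called. In bulk RNA, fewer cells of a kind and less of their RNA per cell cannot be told apart.

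With H2O2, 2180 genes (15.7% of those tested) were higher and 2457 (17.7%) were lower than with IgG, so that 33.4% were called in either direction. A gene is called here when its Benjamini-Hochberg adjusted p from limma, fitted over all 12 libraries on log2(TPM + 1), is under 0.05, and the fold changes below are on that scale, which understates changes of low genes. All 4637 called genes had libraries that did not overlap between the groups, against 62.9% of all genes tested. The higher side held the large changes: 132 genes were called at least 2-fold higher (0.95% of those tested) and 7 at least 2-fold lower (0.0504%), and 18 were called at least 4-fold higher and 0 at least 4-fold lower. The median log2 fold change was 0.41 among the higher calls, −0.31 among the lower calls and −0.01 over all genes tested. The balance of calls varied with level: between 100 and 500 TPM, 38.2% of 1405 genes were called lower and 11.9% higher, while at 500 TPM or more 22% of 250 genes were called lower and 22.4% higher, and under 5 TPM 5.13% of 3628 genes were called lower and 13% higher. The spread was shared with the other 8 libraries: fitted on the 4 libraries alone, limma called 791 genes higher and 561 lower. Without replicate 1 of the H2O2 group 1633 genes were called lower, and without replicate 2 of it 1592.

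**Figure D1:**
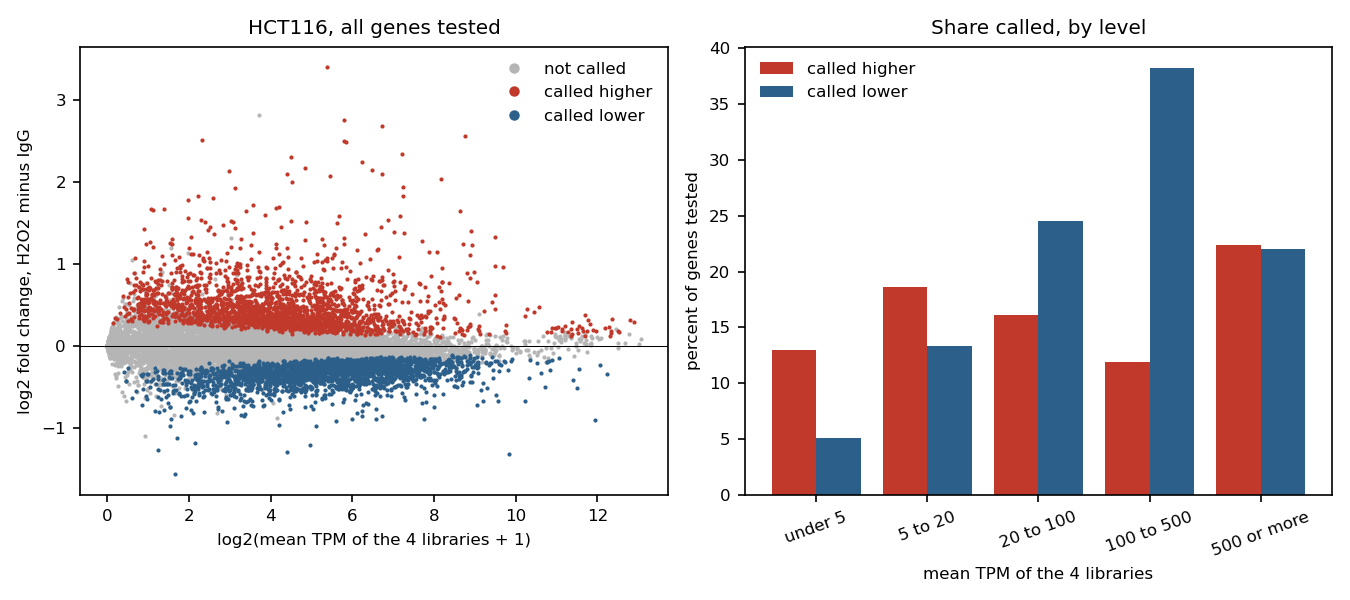
Left, log2 fold change of HCT116 with H2O2 minus IgG against log2(mean TPM + 1) of the 4 libraries, one point per gene tested, with the 2180 higher calls in red and the 2457 lower calls in blue; the points far from 0 lie above it. Right, the percent of genes called in each direction in 5 ranges of mean TPM; lower calls reach 38.2% between 100 and 500 TPM and both directions stand near 22% at 500 TPM or more.

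The regulators of the integrated stress response showed the largest changes. Of 17 listed, 11 rose and 2 fell, with a median log2 fold change of 0.98. Here and in each list below, counts stand beside 15.7% higher and 17.7% lower calls over all genes tested. CHAC1, which degrades glutathione, had 74.3 and 76.5 TPM with H2O2, against 6.57 and 5.92 TPM with IgG. The log2 fold change was 3.40 (SE 0.096, limma adjusted p = 1.13e-09), the highest of all genes called. DDIT3, which encodes the transcription factor CHOP, had 185 and 182 TPM with H2O2, against 25.9 and 29.6 TPM with IgG (log2 fold change 2.68, SE 0.093, limma adjusted p = 6.61e-09). PPP1R15A, which encodes the GADD34 subunit that directs dephosphorylation of eIF2, had 241 and 255 TPM with H2O2, against 50.6 and 45.6 TPM with IgG (log2 fold change 2.34). In each of these genes the groups stood several fold apart and the replicates lay close together. ATF3, a partner of ATF4, had 44.5 and 47.1 TPM with H2O2, against 9.89 and 8.93 TPM with IgG, and TRIB3, a pseudokinase that restrains ATF4, had 170.2 and 169 TPM, against 39.1 and 38.3 TPM with IgG. ATF4 itself was among the abundant transcripts in both groups, with 925 and 979 TPM with H2O2 and 509 and 457 TPM with IgG (log2 fold change 0.98, SE 0.053, limma adjusted p = 2.38e-07). CEBPG and CEBPB, which pair with ATF4 on DNA, rose by 1.12 and 1.05 on the log2 scale. Among the eIF2 kinases, EIF2AK4 (GCN2, which senses uncharged tRNA) fell by 0.37 on the log2 scale, and EIF2AK3 (PERK, in the endoplasmic reticulum) had 8.43 and 8.52 TPM with H2O2 and 7.81 and 7.66 TPM with IgG and was not called.

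**Figure D2:**
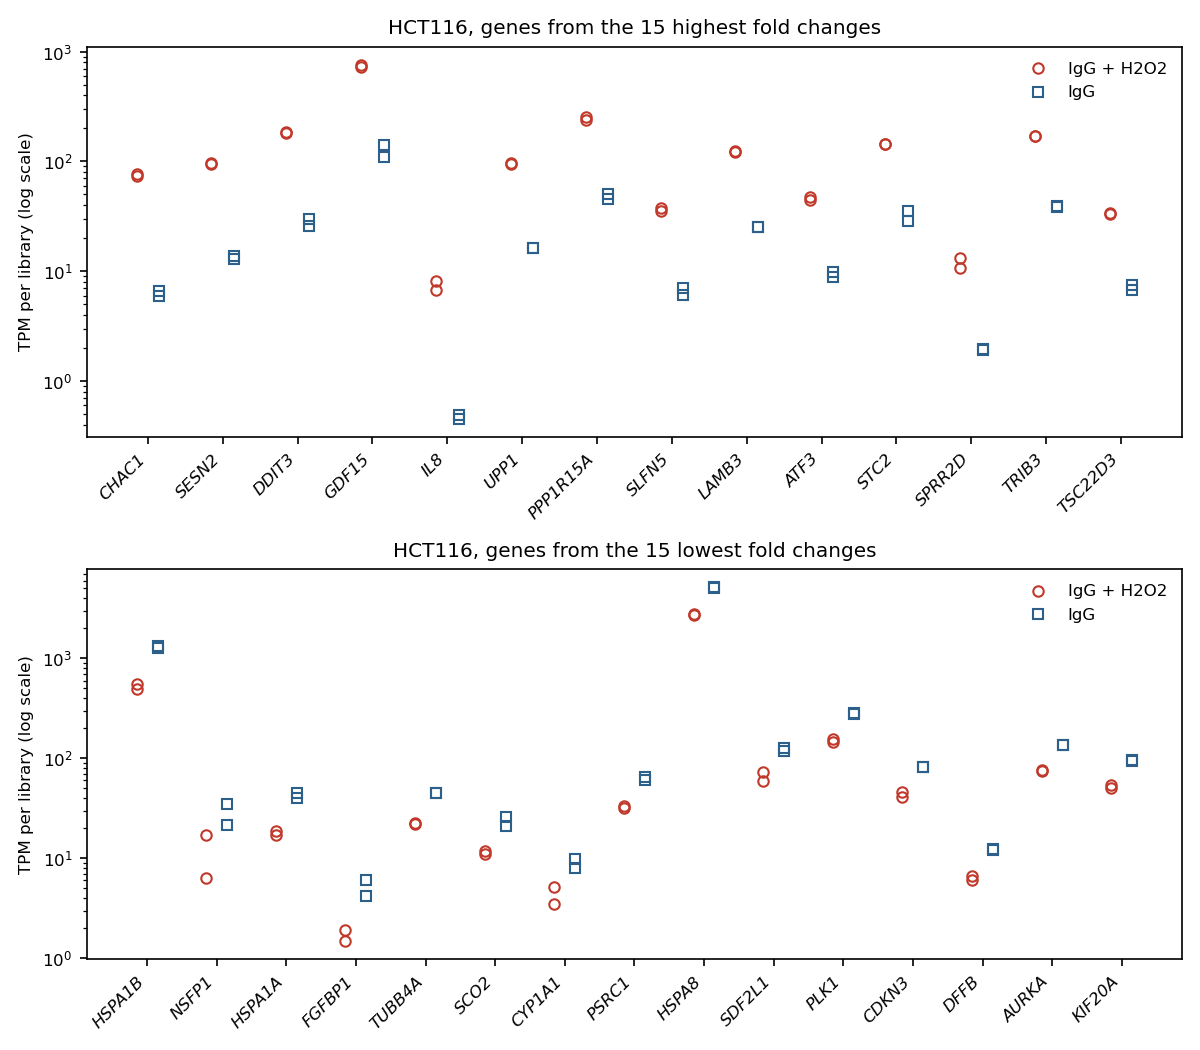
TPM per library on a log axis of genes from the 15 highest (top) and the 15 lowest (bottom) log2 fold changes among called HCT116 genes of at least 5 TPM in 1 group; red circles are H2O2 libraries and blue squares IgG libraries. Only genes whose groups do not overlap were eligible for the figure. CHAC1, with 74.3 and 76.5 TPM against 6.57 and 5.92 TPM, has the highest fold change on log2(TPM + 1). On the plotted log axis, where 1 is not added to TPM, IL8 stands farthest apart, with 6.78 and 8.10 TPM against 0.45 and 0.49 TPM.

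ATF4 binds, with a C/EBP partner, a composite element whose core is TGATGNAA. That core was searched on both strands of 300-base windows of RefSeq promoters (GRCh38.p14, 250 bases before the annotated start to 50 after it). It was present in 3.67% of 27305 promoters in the table and in 1.68% of the 10946 tested genes that had an entry. Among genes called at least 2-fold higher with H2O2, 10 of 100 promoters held it, against 2.71% of 1695 promoters of all higher calls and 1.07% of 2064 promoters of lower calls. The gene lists with the largest shares were the cytosolic tRNA synthetases (5 of 12), the enzymes of amino acid and one-carbon synthesis (3 of 13), the regulators above (3 of 16) and the amino acid transporters (3 of 16). A match is a run of letters and no evidence of binding. The sites below were chosen after the values were seen; they are given 5′ to 3′ along the strand that reads TGATGNAA, with 8 bases on each side and the core in capitals. The first 5 are those of the 10 genes called at least 2-fold higher that belong to gene lists used here. The last 5 are all matches among the tRNA synthetases. Each of these was called higher, as were 11 of the 20 listed synthetases, of which only 12 had a promoter entry. NARS and IARS rose by only 0.19 and 0.18 on the log2 scale. SARS, which rose by 0.73, had no match or no promoter entry.
CHAC1: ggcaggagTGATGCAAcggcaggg
ATF3: ggtcaggaTGATGGAAggctgtca
GOT1: gccgagaaTGATGCAAccaatgca
SLC7A1: cgcactgcTGATGAAAcctggcgc
ASNS: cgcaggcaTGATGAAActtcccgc
CARS: ctagaatcTGATGCAAccgccgcc
AARS: aacttggcTGATGCAActgcgaga
TARS: ggaccagcTGATGCAAtcgaaagg
NARS: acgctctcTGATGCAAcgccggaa
IARS: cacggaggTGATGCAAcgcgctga
The core reads TGATGCAA in CHAC1, GOT1 and all 5 synthetases, TGATGAAA in SLC7A1 and ASNS, and TGATGGAA in ATF3. The match lies 209 bases before the start in CHAC1, 191 before it in ATF3, 198 before it in GOT1 and 68 before it in ASNS.

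The whole windows of the 3 regulators with the highest fold changes show how unlike they are. The same core and the palindrome TGACGTCA, which ATF and CREB factors bind, were searched on both strands, and matches are in capitals. TGACGTCA was present in 1.98% of all promoters and in 3.22% of those of tested genes. The CHAC1 window, chr15:40953221-40953520 on the plus strand, holds 1 match, read here as the reverse complement of the core. The DDIT3 window, chr12:57520465-57520764 on the minus strand, holds neither run of letters. The PPP1R15A window, chr19:48872171-48872470 on the plus strand, holds the palindrome 58 bases before the start. No match says only that these letters are not in this window.
CHAC1: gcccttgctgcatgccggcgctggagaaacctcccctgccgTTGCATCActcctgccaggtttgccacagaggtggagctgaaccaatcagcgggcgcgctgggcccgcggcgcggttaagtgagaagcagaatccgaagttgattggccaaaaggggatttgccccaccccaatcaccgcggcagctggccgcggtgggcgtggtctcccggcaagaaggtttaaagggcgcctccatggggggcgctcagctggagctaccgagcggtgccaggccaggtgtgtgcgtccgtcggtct
DDIT3: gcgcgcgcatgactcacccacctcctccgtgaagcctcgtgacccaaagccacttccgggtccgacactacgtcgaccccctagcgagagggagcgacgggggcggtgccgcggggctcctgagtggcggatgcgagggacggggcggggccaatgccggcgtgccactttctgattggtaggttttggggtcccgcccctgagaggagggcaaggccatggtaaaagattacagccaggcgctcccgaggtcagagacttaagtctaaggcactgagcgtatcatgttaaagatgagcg
PPP1R15A: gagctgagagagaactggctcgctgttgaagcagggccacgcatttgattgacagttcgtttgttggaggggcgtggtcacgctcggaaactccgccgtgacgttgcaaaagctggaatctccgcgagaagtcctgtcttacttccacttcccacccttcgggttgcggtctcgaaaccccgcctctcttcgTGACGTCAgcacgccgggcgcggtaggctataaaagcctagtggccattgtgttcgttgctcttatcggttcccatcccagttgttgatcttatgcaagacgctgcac

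**Figure D3:**
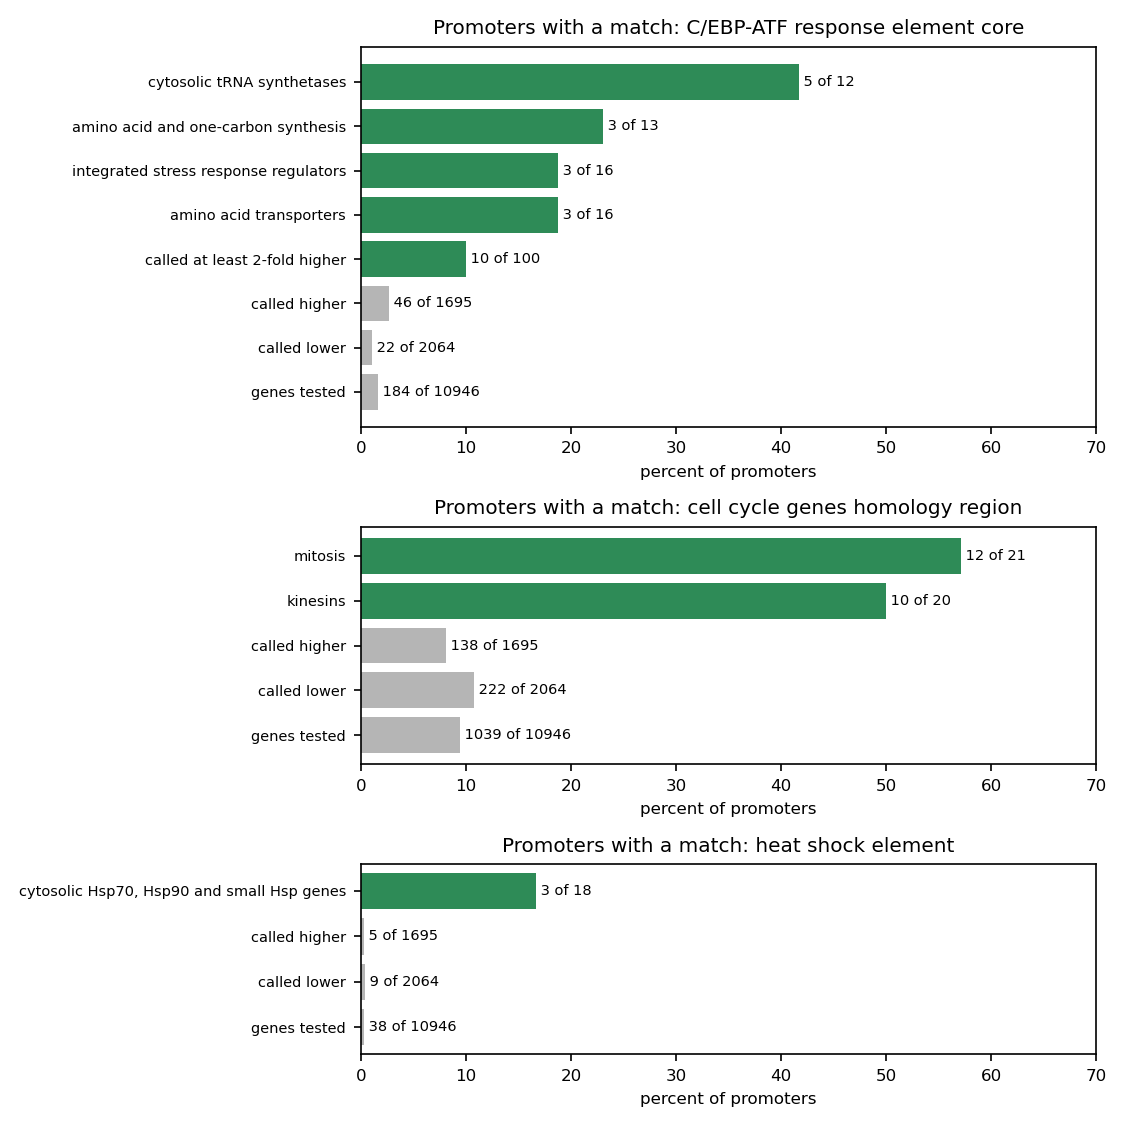
Percent of 300-base promoters with at least 1 match to the C/EBP-ATF core TGATGNAA (top), the cell cycle motif TTTGAA (middle) and the heat shock element (bottom) in gene lists (green, with the genes called at least 2-fold higher) and in all genes called or tested (grey), with counts beside the bars. The shares reach 5 of 12 in tRNA synthetases, 12 of 21 in mitosis genes and 3 of 18 in the cytosolic Hsp list.

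Most genes that supply amino acids rose as well. Of 18 enzymes of amino acid and one-carbon synthesis that passed the filter, of 20 listed, 12 rose and 4 fell (median log2 fold change 0.40), and of 18 amino acid transporters 10 rose and 1 fell (median 0.64). ASNS, which makes asparagine, had 368 and 376 TPM with H2O2, against 166 and 169 TPM with IgG (log2 fold change 1.14, limma adjusted p = 2.30e-08). GOT1, which makes aspartate in the cytosol, rose by 1.28, PSAT1, in serine synthesis, by 0.96, and MTHFD2, in the mitochondrial folate cycle, by 0.89 on the log2 scale. SHMT1, the cytosolic serine hydroxymethyltransferase, fell by 0.42 on that scale. SLC7A11, the cystine importer that feeds glutathione synthesis, had 67.6 and 73.1 TPM with H2O2, against 15.9 and 16.0 TPM with IgG (log2 fold change 2.07, SE 0.086, limma adjusted p = 2.45e-08). Its heavy chain partner SLC3A2 rose by 0.90, the neutral amino acid transporter SLC1A4 by 1.51 and the glycine transporter SLC6A9 by 1.44 on the log2 scale.

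Cytosolic tRNA synthetases, which charge tRNAs with their amino acids, split: 11 of 20 rose and 5 fell (median log2 fold change 0.19). CARS, for cysteine, had 125 and 128 TPM with H2O2, against 71.3 and 74.4 TPM with IgG. GARS, SARS, AARS and WARS rose by 0.78, 0.73, 0.71 and 0.53 on the log2 scale, while FARSA, a subunit of the phenylalanine enzyme, had 185 and 170.2 TPM with H2O2, against 246 and 259 TPM with IgG, and fell by 0.51. Without replicate 1 of the H2O2 group, 3 synthetases were called lower in place of 5.

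Of 15 genes that restrain mTORC1, the kinase complex that promotes growth when amino acids are plentiful, 4 rose and 1 fell (median log2 fold change 0.04). SESN2, a leucine sensor and a target of both ATF4 and p53, had 96.7 and 95.1 TPM with H2O2, against 12.8 and 13.9 TPM with IgG (log2 fold change 2.76, SE 0.086, limma adjusted p = 2.74e-09). DDIT4, which encodes REDD1, had 468 and 451 TPM with H2O2, against 141 and 86.9 TPM with IgG. The groups do not overlap in DDIT4, although its IgG libraries lie farther apart than those of SESN2.

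Endoplasmic reticulum genes of the unfolded protein response did not move as a block: 7 of 21 rose and 7 fell, with a median log2 fold change of −0.09. ERN1, the sensor IRE1, had 12.9 and 13.0 TPM with H2O2, against 5.76 and 7.03 TPM with IgG. XBP1, the transcription factor made by IRE1 splicing, rose by 0.81, HERPUD1, in the degradation of misfolded proteins, by 0.78 and HSPA5, the chaperone BiP, by 0.54 on the log2 scale. SDF2L1, an endoplasmic reticulum chaperone cofactor, had 72.8 and 59.7 TPM with H2O2, against 119 and 128 TPM with IgG, and fell by 0.89. MANF, CRELD2, PDIA4 and CALR, which are endoplasmic reticulum proteins too, fell by 0.47, 0.47, 0.41 and 0.40 on that scale.

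Of 30 genes of the p53 pathway that passed the filter, of 32 listed, 28 rose and 0 fell, with a median log2 fold change of 0.67. GDF15, a secreted stress cytokine, had 759 and 718 TPM with H2O2, against 141 and 109 TPM with IgG (log2 fold change 2.56, SE 0.10, limma adjusted p = 2.30e-08). CDKN1A, which encodes p21 and holds cells in G1, had 595 and 601 TPM with H2O2, against 186 and 195 TPM with IgG (log2 fold change 1.65, SE 0.046, limma adjusted p = 1.13e-09). Both genes sat several fold higher with H2O2, with replicates close together. TNFRSF10B, the TRAIL receptor DR5, had 210.2 and 216 TPM with H2O2, against 68.1 and 72.4 TPM with IgG. MDM2, which ubiquitinates p53, rose by 1.06, GADD45A, in growth arrest, by 1.46, and the BH3-only proteins BBC3 (PUMA) and PMAIP1 (NOXA) by 1.52 and 1.36 on the log2 scale. BAX, with 160 and 152 TPM with H2O2 and 135 and 144 TPM with IgG, and CCNG1, with 74.7 and 85.9 TPM with H2O2 and 75.0 and 74.1 TPM with IgG, were the 2 members not called. SESN2 and several others of this list are also targets of ATF4.

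Genes of death and survival signalling rose on both sides. Of 14 genes of death receptors and their proximal signalling 10 rose and 0 fell, with FAS 1.30 and TNFRSF10A 0.52 higher on the log2 scale beside TNFRSF10B, and CFLAR, which blocks caspase 8, 0.57 higher. Of 17 genes of the BCL2 family 8 rose and 2 fell. The anti-apoptotic members BCL2L1 and MCL1 rose by 0.63 and 0.51 and the pro-apoptotic BCL2L11 (BIM) by 0.55 on that scale, while pro-apoptotic BAD fell by 0.49.

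The NRF2 pathway rose in part. Of 29 listed genes 17 rose and 1 fell, with a median log2 fold change of 0.27, and some of them, SLC7A11 among them, are also targets of ATF4. HMOX1, which degrades heme, had 176 and 171 TPM with H2O2, against 57.7 and 61.1 TPM with IgG (log2 fold change 1.53, SE 0.061, limma adjusted p = 1.94e-08). TXNRD1, the cytosolic thioredoxin reductase, had 667 and 732 TPM with H2O2, against 266 and 259.9 TPM with IgG, a log2 fold change of 1.40. SRXN1, which repairs overoxidised peroxiredoxins, rose by 0.76, GCLC and GCLM, the subunits that start glutathione synthesis, by 0.84 and 0.61, and BACH1, a repressor at NRF2 sites, by 0.62 on the log2 scale. NQO1, a quinone reductase often used as a readout of NRF2, rose by 0.27. KEAP1, the inhibitor of NRF2, had 114 and 113 TPM with H2O2 and 117 and 124 TPM with IgG and was not called.

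The enzymes that remove peroxide and superoxide moved little. Of 28 genes of scavenging and thiol redox that passed the filter, 2 rose (7.14%) and 6 fell (21.4%), with a median log2 fold change of −0.03. The 2 that rose were TXNRD1 and SRXN1. The lower share was near the 17.7% of all genes tested. PRDX1, an abundant peroxiredoxin, had 1943 and 2008 TPM with H2O2 and 1938 and 1921 TPM with IgG, and GPX1 had 471 and 437 TPM with H2O2 and 444 and 454 TPM with IgG; neither was called. SOD2, the mitochondrial superoxide dismutase, fell by 0.27 on the log2 scale and CAT, catalase, by 0.26, although the CAT call is lost without replicate 1 of either group. Of 9 metallothionein and zinc response genes 6 rose and 1 fell. SLC30A1, a zinc exporter, rose by 0.80 and MT2A by 0.32 on that scale, while SLC39A10, a zinc importer, fell by 0.58. The metallothionein genes are near-identical copies among which reads can be split, so single members are uncertain.

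Transcription factors and feedback genes of growth factor and inflammatory signalling rose. Of 22 AP-1 and immediate early genes 16 rose and 0 fell, led after ATF3 by MAFF, a small MAF protein, with 25.2 and 29.1 TPM with H2O2, against 8.01 and 7.29 TPM with IgG. JUN rose by 1.12 and FOSL1 by 0.85 on the log2 scale, while the early gene EGR1 had 35.9 and 35.4 TPM with H2O2 and 38.01 and 35.1 TPM with IgG and was not called. Of 16 dual-specificity phosphatases, which switch MAP kinases off, 9 rose and 0 fell. DUSP5, which acts on ERK, had 235 and 243 TPM with H2O2, against 61.6 and 61.2 TPM with IgG (log2 fold change 1.94, SE 0.048, limma adjusted p = 4.72e-10). Of 13 Kruppel-like factors 10 rose and 0 fell, with KLF5 1.03 and KLF4 0.94 higher on that scale.

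Of 20 NF-kappaB subunits and feedback genes 13 rose and 1 fell (median log2 fold change 0.33). RELB, a subunit of the non-canonical pathway, had 25.6 and 27.9 TPM with H2O2, against 8.75 and 9.50 TPM with IgG, and its partner NFKB2 rose by 0.86 on the log2 scale. IL8, the neutrophil chemokine now named CXCL8, had 6.78 and 8.10 TPM with H2O2, against 0.45 and 0.49 TPM with IgG (log2 fold change 2.52, SE 0.11, limma adjusted p = 3.27e-08), and stayed a low transcript. CCL20 had 0.45 and 1.15 TPM with H2O2 and was listed at 0 in both IgG libraries. In all, 7 of 19 chemokines and cytokines rose and 0 fell, and CXCL1, CXCL2 and CXCL3 among them are near-identical copies with values under 4 TPM in all 4 libraries. Of 13 EGF receptor ligands, receptors and regulators 7 rose and 1 fell. HBEGF, a shed ligand, had 24.5 and 27.0 TPM with H2O2, against 6.89 and 7.80 TPM with IgG, AREG rose by 1.33 and TGFA by 0.94 on the log2 scale, and ERRFI1, an inhibitor of the receptor, by 1.11.

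LAMB3, a laminin chain of basement membranes, had 122 and 124 TPM with H2O2, against 25.2 and 25.1 TPM with IgG. UPP1, which breaks down uridine, had 97.7 and 94.5 TPM with H2O2, against 16.3 and 16.3 TPM with IgG (log2 fold change 2.48). UPP1 stood apart in its list of 16 pyrimidine genes, of which 2 rose and 7 fell. TYMS, the thymidylate synthase, fell by 0.30 on the log2 scale. BTG1, an antiproliferative gene, had 36.6 and 34.7 TPM with H2O2, against 8.70 and 7.65 TPM with IgG, and 4 of 5 BTG and TOB genes rose. SLFN5, TSC22D3 and SPRR2D are also among the 15 highest fold changes, with 2.31, 2.09 and 2.13 on the log2 scale; SPRR2D has near-identical copies and is uncertain.

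Of 20 genes named for hypoxia 13 rose and 0 fell. STC2, a secreted glycoprotein, had 143 and 145 TPM with H2O2, against 35.6 and 28.4 TPM with IgG, and VEGFA, the endothelial growth factor, had 63.7 and 62.5 TPM with H2O2, against 30.6 and 26.7 TPM with IgG. In several of these genes the IgG libraries differed from each other: NDRG1, a stress-induced gene, had 318 and 321 TPM with H2O2, against 172 and 120 TPM with IgG. Without replicate 2 of the IgG group 8 of the 20 were called higher, and without replicate 2 of the H2O2 group 7. In the fit of the 4 libraries alone 3 of the 20 were called higher, and in that of the 6 HCT116 libraries 6. The glycolytic and pentose phosphate enzymes, many of which are hypoxia targets as well, gave 1 higher and 4 lower calls among 23. The lower share, 17.4%, was near the 17.7% of all genes tested. Of 20 genes of autophagosomes and lysosomes 8 rose and 1 fell. MAP1LC3B, which coats forming autophagosomes, had 232 and 238 TPM with H2O2, against 70.5 and 60.3 TPM with IgG (log2 fold change 1.83, limma adjusted p = 1.79e-08), GABARAPL1 of the same family rose by 1.07, and the cargo receptor SQSTM1 by 0.55.

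The cytosolic heat shock genes fell. Of 20 genes for Hsp70, Hsp90, small heat shock proteins and their partners 15 fell and 1 rose, with a median log2 fold change of −0.45. Their summed level was 11526 and 11835 TPM with H2O2, against 17535 and 17323 TPM with IgG. HSPA8, the constitutive Hsp70 and one of the most abundant transcripts, had 2760.2 and 2732 TPM with H2O2, against 5155 and 5077 TPM with IgG (log2 fold change −0.90, SE 0.050, limma adjusted p = 2.80e-07). HSPA1B, an inducible Hsp70, had 551 and 489.6 TPM with H2O2, against 1277 and 1326 TPM with IgG (log2 fold change −1.32, SE 0.074, limma adjusted p = 2.64e-07), the lowest of the genes of at least 5 TPM. HSPA1A, its near-identical copy, had 18.8 and 17.0 TPM with H2O2, against 45.2 and 39.9 TPM with IgG; the split of reads between the copies is uncertain. In these genes the libraries of the groups lie far apart and those within a group close together. HSPH1, an exchange factor of Hsp70, fell by 0.69, BAG3, another Hsp70 cofactor, by 0.60, STIP1, which links Hsp70 to Hsp90, by 0.54 and HSP90AA1 by 0.51 on the log2 scale. HSPA13, a Hsp70 of microsomes, was the 1 member that rose, by 0.74. HSF1 had 106 and 96.5 TPM with H2O2 and 108 and 118 TPM with IgG and was not called.

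The heat shock element, searched on both strands as 3 adjoining pentamers NGAAN of alternating orientation with their outer bases left off, was present in 0.487% of all promoters, in 0.347% of those of tested genes and in 3 of 18 of the cytosolic Hsp list. The HSPA8 window (RefSeq, GRCh38.p14, chr11:123062087-123062386 on the minus strand) is shown because HSPA8 was the most abundant gene of its list with IgG and fell; it was chosen after its values were seen. It holds 2 matches, in capitals, 230 and 55 bases before the start.
HSPA8: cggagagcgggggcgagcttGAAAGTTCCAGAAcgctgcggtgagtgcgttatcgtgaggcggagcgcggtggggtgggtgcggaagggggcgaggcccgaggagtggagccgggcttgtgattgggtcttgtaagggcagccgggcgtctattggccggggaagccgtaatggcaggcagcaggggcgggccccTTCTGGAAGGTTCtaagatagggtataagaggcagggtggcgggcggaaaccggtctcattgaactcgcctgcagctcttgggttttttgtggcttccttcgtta

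Other folding machines fell by less. Their counts are to be read beside the lower calls over all genes tested, 17.7%, and between 100 and 500 TPM, 38.2%. Of 20 DNAJ co-chaperones, which pass clients to Hsp70, 7 fell (35%) and 2 rose. DNAJA1 had 445 and 458 TPM with H2O2, against 745 and 695 TPM with IgG, and DNAJB1 fell by 0.59 on the log2 scale. Of 14 genes of the TRiC chaperonin and prefoldin 8 fell and 1 rose, with TCP1 lower by 0.31; without replicate 1 of the H2O2 group 4 were called lower. Of 20 mitochondrial chaperones, proteases and import factors 11 fell and 1 rose, and with quantile normalization 7 were called lower and 5 higher. HSPE1, the partner of Hsp60, fell by 0.39. HSPD1, which encodes Hsp60, had 1625 and 1749 TPM with H2O2, against 1965 and 1861 TPM with IgG (log2 fold change −0.18, limma adjusted p = 0.0138), a call that is lost without replicate 1 of either group. Of 30 respiratory chain subunits 9 fell (30%) and 0 rose, to be read beside the same shares. Of 17 factors of cytochrome oxidase assembly 5 fell and 1 rose, with 3 lower calls without replicate 2 of the H2O2 group, and SCO2, a copper carrier, had 11.8 and 11.0 TPM with H2O2, against 25.7 and 21.1 TPM with IgG. SCO2 is known as a p53 target and fell while the p53 list rose.

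Mitotic genes fell nearly as a whole. Of 27 listed 26 fell and 0 rose, with a median log2 fold change of −0.50. PLK1, a kinase of mitotic entry, had 155 and 146 TPM with H2O2, against 275 and 284 TPM with IgG (log2 fold change −0.89, SE 0.055, limma adjusted p = 6.37e-07). AURKA, the centrosome kinase, had 75.9 and 74.2 TPM with H2O2, against 137 and 136 TPM with IgG. CCNB1, cyclin B1, had 181 and 197 TPM with H2O2, against 312 and 325 TPM with IgG. In all 3 genes the replicates lay close together and the H2O2 libraries were lower. BUB1, of the spindle checkpoint, fell by 0.77, CDC20, the activator of the anaphase complex, by 0.72, FOXM1, a transcription factor of these genes, by 0.50 and CDK1 by 0.31 on the log2 scale. CDC25B, with 150.5 and 143 TPM with H2O2 and 150 and 179 TPM with IgG, was the 1 member not called.

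Of 21 kinesins listed 12 fell and 0 rose. Among all 35 tested kinesin symbols (KIF with a number, or KIFC) 12 fell (34.3%) and 1 rose, with a median log2 fold change of −0.16. KIF20A, which acts in cytokinesis, led the list, with 50.3 and 54.5 TPM with H2O2, against 96.1 and 94.6 TPM with IgG. Of 14 tubulins 11 fell and 1 rose. TUBB4A had 22.4 and 22.0 TPM with H2O2, against 44.7 and 44.6 TPM with IgG, and the abundant TUBB4B fell by 0.68 on the log2 scale. The tubulins that fell include members used outside mitosis as well, and as closely similar copies they can share reads. TUBE1, the centriolar epsilon tubulin, rose by 0.77. PSRC1, which binds the spindle, and CDKN3, a phosphatase of cyclin-dependent kinases, fell by 0.92 and 0.89 on that scale.

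The cell cycle genes homology region, TTTGAA, was searched on both strands: 15.4% of all promoters and 9.49% of those of tested genes held it, against 12 of 21 in the mitosis list, 10 of 20 in the kinesins and 1 of 28 in the DNA replication list. The PLK1 window (RefSeq, GRCh38.p14, chr16:23678639-23678938 on the plus strand), chosen after its values were seen as the mitotic gene with the lowest fold change, holds it 29 bases before the start, in capitals.
PLK1: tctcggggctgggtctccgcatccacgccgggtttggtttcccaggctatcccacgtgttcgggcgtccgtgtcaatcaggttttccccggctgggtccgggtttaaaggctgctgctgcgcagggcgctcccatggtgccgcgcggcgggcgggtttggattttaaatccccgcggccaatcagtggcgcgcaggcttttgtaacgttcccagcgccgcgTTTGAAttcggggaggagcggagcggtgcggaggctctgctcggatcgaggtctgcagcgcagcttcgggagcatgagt

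Genes of the earlier cell cycle moved less. Of 31 DNA replication genes 14 fell (45.2%) and 1 rose, with a median log2 fold change of −0.13. Over all genes tested 15.7% were called higher and 17.7% lower, and between 100 and 500 TPM 38.2% were called lower. MCM4, a subunit of the replicative helicase, had 141 and 145 TPM with H2O2, against 183 and 194 TPM with IgG (log2 fold change −0.39, limma adjusted p = 0.000102), and GINS2 and RFC5, which act with the helicase and the sliding clamp, fell by 0.40 and 0.41. Without replicate 1 of the H2O2 group 8 were called lower, and without replicate 2 of the IgG group 9. Of 21 G1/S regulators 5 rose and 2 fell: beside CDKN1A, the repressor E2F7 rose by 0.85 and cyclin CCNE2 by 0.58 on the log2 scale, and the inhibitor CDKN2C fell by 0.72. Of 19 replication-dependent histone genes 2 fell and 1 rose, and all 3 calls are lost without at least 1 library. Of 18 base excision repair genes, which repair oxidised bases, 8 fell (44.4%) and 0 rose. NTHL1, a glycosylase for oxidised pyrimidines, had 32.5 and 28.8 TPM with H2O2, against 46.1 and 50.4 TPM with IgG, and XRCC1, a scaffold of that pathway, fell by 0.44.

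Of 16 long non-coding RNAs and hosts of small RNAs 15 rose and 0 fell, with a median log2 fold change of 0.51. GAS5, a host of small nucleolar RNAs, had 614 and 558 TPM with H2O2, against 244 and 249.7 TPM with IgG (log2 fold change 1.24, limma adjusted p = 1.38e-07), while the small RNAs within such genes were not analysed here. Of 30 ribosomal proteins 12 rose and 0 fell, with a median of 0.12; 7 were called higher without replicate 1 of the H2O2 group and 5 with quantile normalization. Among all 83 tested RPL and RPS symbols of ribosomal proteins 30 rose (36.1%) and 2 fell (2.41%). Of 24 ribosome biogenesis factors 12 fell (50%) and 0 rose, with a median of −0.13. Of 26 genes of cholesterol and fatty acid synthesis 16 fell and 1 rose, with 3 lower calls in the fit of the 4 libraries alone. LSS, which forms the sterol ring system, had 21.2 and 21.0 TPM with H2O2, against 27.3 and 31.6 TPM with IgG. Of 31 proteasome subunits 13 fell (41.9%) and 0 rose, with a median of −0.13. Lower calls made up 17.7% of all genes tested and 38.2% of those between 100 and 500 TPM. The proteasome count dropped when any 1 of the 4 libraries was left out. It was 4 with quantile normalization and 0 in the fit of the 4 libraries alone.

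The remaining lists gave few calls or calls in both directions. Over all genes tested 15.7% were called higher and 17.7% lower, and counts near these shares say little about a list. Of 16 Wnt targets 4 fell and 1 rose: AXIN2, a feedback gene of the pathway, fell by 0.53 on the log2 scale and MYC had 244 and 252 TPM with H2O2, against 195 and 193 TPM with IgG. Of 17 genes of transforming growth factor beta signalling and the ID family 3 rose and 4 fell, among them ID2 and ID3, which block differentiation factors, by 0.68 and 0.65. Of 19 genes of iron and heme handling 6 rose and 4 fell; FTH1, the ferritin heavy chain, had 5930 and 5760 TPM with H2O2, against 4795 and 4514 TPM with IgG. Of 23 genes of homologous recombination and damage signalling 6 fell and 2 rose, with H2AFX, the histone marked at DNA breaks, lower by 0.68, and leaving out replicate 1 or replicate 2 of the H2O2 group left 3 lower calls. Interferon response genes gave 4 higher and 3 lower calls among 23 (17.4% and 13%), and antigen presentation 3 and 3 among 13 (23.1% each). Keratins gave 2 higher and 1 lower among 12, and splicing regulators 1 and 4 among 16. Of 12 colon epithelial markers that passed the filter 4 rose and 1 fell, and of 10 mesenchymal markers 1 rose, the receptor kinase AXL, by 0.49. Of 4 fibroblast and endothelial markers ACTA2 rose, with 8.24 and 10.9 TPM with H2O2, against 4.16 and 3.44 TPM with IgG, while VWF, CDH5, COL3A1, PDGFRA, DCN and LUM did not pass the filter.

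Some of the lowest fold changes belong to genes outside the lists. FGFBP1, a carrier of fibroblast growth factors, had 1.92 and 1.47 TPM with H2O2, against 6.12 and 4.20 TPM with IgG (log2 fold change −1.18, limma adjusted p = 0.000318). CYP1A1, a target of the aryl hydrocarbon receptor, had 3.45 and 5.13 TPM with H2O2, against 8.07 and 9.79 TPM with IgG, and DFFB, the nuclease of apoptotic DNA fragmentation, had 6.57 and 6.04 TPM, against 12.3 and 12.1 TPM with IgG. NSFP1, a pseudogene whose reads can be shared with its parent, had 17.2 and 6.34 TPM with H2O2, against 34.9 and 21.6 TPM with IgG, and its call is lost without replicate 1 of the IgG group or replicate 2 of the H2O2 group.

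**Figure D4:**
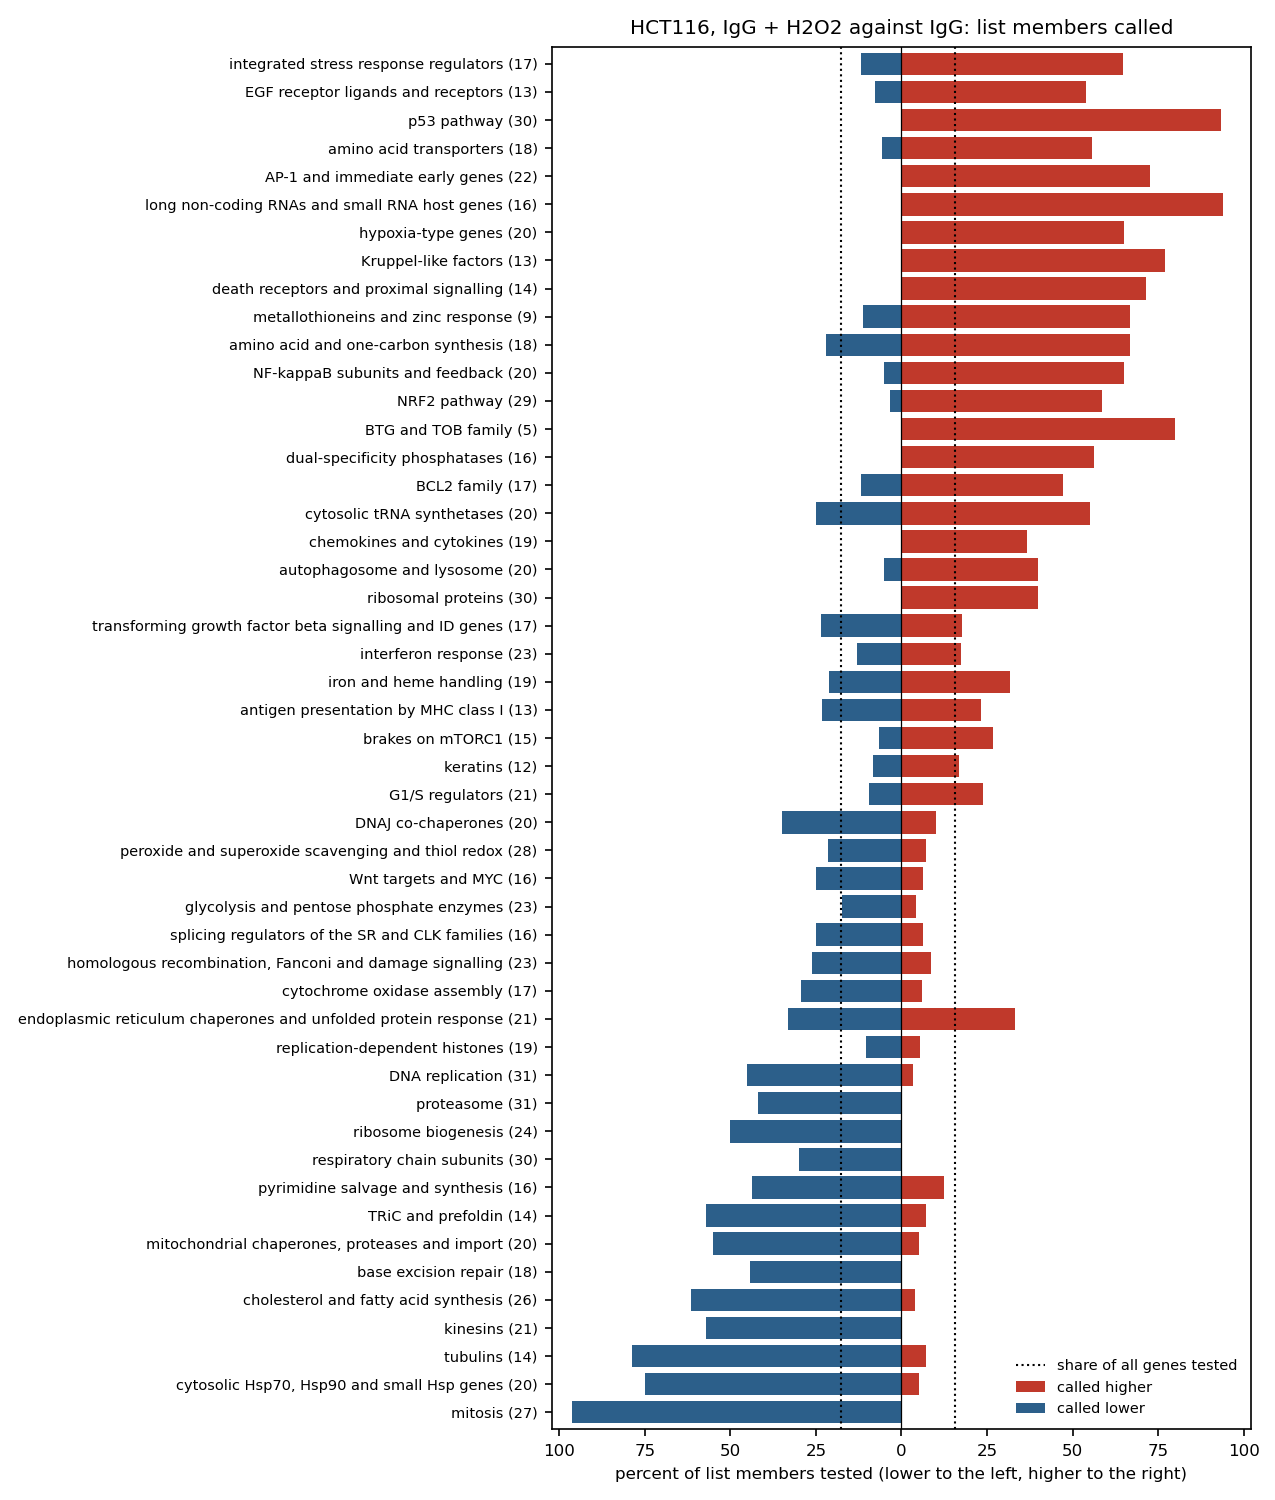
Percent of the tested members of each gene list called higher (red, to the right) or lower (blue, to the left) in HCT116 with H2O2 against IgG, with the number tested in parentheses and lists ordered by their median log2 fold change; dotted lines mark the shares of all genes tested, 15.7% higher and 17.7% lower. The p53 list stands at 28 of 30 higher and the mitosis list at 26 of 27 lower.

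The difference of the response between the lines was tested as an interaction, HCT116 minus MDA-MB-231. It was called higher for 1093 genes (7.86% of those tested) and lower for 1411 (10.1%), and 2146 of the 4637 genes called in HCT116 were among them. In MDA-MB-231 itself, 187 genes rose (1.35% of those tested) and 202 fell (1.45%). CHAC1 had 7.31 and 8.14 TPM in MDA-MB-231 with H2O2 and 8.05 and 6.62 TPM there with IgG, overlapping values beside the change of 3.40 on the log2 scale in HCT116 (difference of log2 fold changes 3.33, SE 0.14, limma adjusted p = 1.01e-07). DDIT3 had 48.2 and 43.2 TPM in MDA-MB-231 with H2O2 and 43.5 and 45.1 TPM with IgG and was not called there (difference 2.64, SE 0.13, limma adjusted p = 3.87e-07). HSPA1B had 353 and 373 TPM in MDA-MB-231 with H2O2, against 193 and 213 TPM with IgG, and rose there while it fell in HCT116 (difference −2.16, SE 0.10, limma adjusted p = 3.75e-07).

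**Figure D5:**
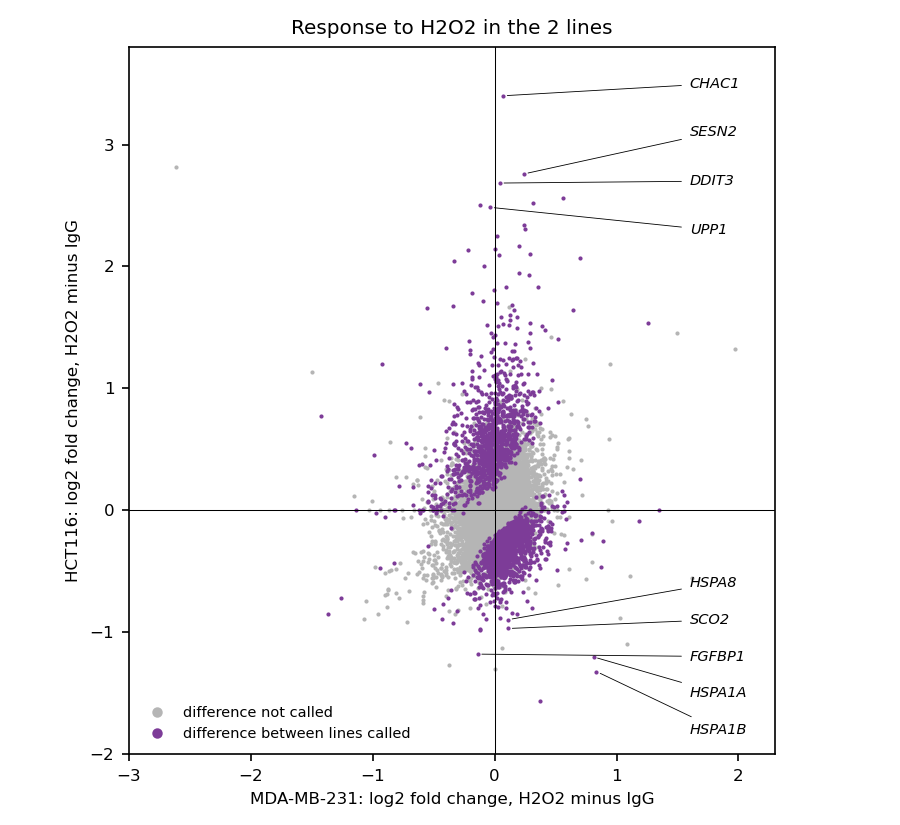
Log2 fold change with H2O2 minus IgG in HCT116 (vertical) against that in MDA-MB-231 (horizontal), one point per gene tested; purple points are the 1093 and 1411 genes whose difference between lines was called. CHAC1 lies at 3.40 in HCT116 and 0.07 in MDA-MB-231, and HSPA1B at −1.32 and 0.84.

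By list, the difference was called higher for 24 of 30 p53 genes, 9 of 17 regulators of the integrated stress response and 10 of 18 amino acid transporters, and lower for 15 of 20 cytosolic Hsp genes. The mitosis list had 2 higher and 4 lower calls of the difference among 27, and in MDA-MB-231 22 of the 27 fell. PLK1 had 80.7 and 84.1 TPM in MDA-MB-231 with H2O2, against 172 and 176 TPM with IgG (log2 fold change −1.07), and the difference between lines was 0.18 with a limma adjusted p of 0.132. Of 31 replication genes 24 had a difference called lower and 0 higher: 19 rose and 0 fell in MDA-MB-231. FEN1, which trims Okazaki fragments, had 176 and 181 TPM with H2O2 and 225 and 233 TPM with IgG in HCT116, and 227 and 221 TPM with H2O2 and 173 and 170.4 TPM with IgG in MDA-MB-231 (difference −0.73, limma adjusted p = 4.48e-05). HMOX1 rose in both lines, by 1.53 in HCT116 and 1.25 in MDA-MB-231 on the log2 scale, with a difference of 0.28 (limma adjusted p = 0.0455). Without replicate 2 of the MDA-MB-231 H2O2 group the difference was called higher for 695 genes and lower for 612.

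The HCT116 libraries with anti-Hsp60N and H2O2 share the IgG libraries with the comparison above, so that their values are only set beside it. Against IgG, 2366 genes were higher (17% of those tested) and 2489 lower (17.9%). CHAC1 had 66.2 and 72.9 TPM with the antibody and H2O2, DDIT3 163 and 187 TPM, HSPA1B 475 and 449 TPM and PLK1 161 and 146 TPM. In all 4 genes these libraries lay nearer to those with IgG and H2O2 than to those with IgG alone.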

How the data were processed

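RNA was sequenced from 12 libraries in 6 groups of 2. The authors deposited TPM per gene symbol; per the submitters' processing notes the tools were bcl2fastq 2.20, STAR and RSEM and the build was hg19, while the sources used here do not give their roles, other versions, the annotation or the strand setting. TPM keeps no read depth, so depth is unknown and no counting interval is given. Columns were matched to samples by the descriptions in the labels, with 0 columns left unmatched.

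Values were taken as log2(TPM + 1) for genes with at least 1 TPM in 2 libraries and fitted with limma 3.58.1 (R 4.3.3) as 6 group means with a variance trend. Tests were two-sided and adjusted by Benjamini-Hochberg over 13902 genes, with a threshold of 0.05; the fit was tested on simulated data. Small RNA genes (54 that passed the TPM filter) were left out. The genes named were the 15 highest and 15 lowest called fold changes with at least 5 TPM in 1 group and no overlap. Added were up to 3 called members per direction of each list, each list's core members and the 5 highest and lowest differences between lines. These differences were ranked among genes called both for the difference and in HCT116, with a mean of at least 5 TPM in 1 HCT116 group. The remaining names were chosen after their values were seen. The response and the lists were chosen with earlier results of these data known, so list counts are descriptions. A few genes chosen in this way are left out of the text and not reported here. Promoters and their coordinates came from RefSeq (GRCh38.p14), matched by symbol, and were not combined with coordinates of hg19. In all, 6 motifs were searched. The antioxidant response element core TGACNNNGC was in 14.9% of promoters of higher calls, 15.3% of those of tested genes and 5 of 23 of the NRF2 list. The CCAAT box was in 36.2% of promoters of higher calls, 40.6% of those of lower calls and 36.7% of those of tested genes. Alternatives were other filters, pseudocounts, scalings, subsets of libraries, a replicate block and leaving out each library. Figures were drawn with matplotlib 3.10.9 under Python 3.11.15.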

Additional observations from a re-analysis of the deposited data

Results flagged for a closer look

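The response to H2O2 differed between HCT116 and MDA-MB-231 by a test of the difference itself, an interaction in limma over all genes. The difference of log2 fold changes, HCT116 minus MDA-MB-231, was called higher for 1093 genes and lower for 1411. It was 3.33 for CHAC1, 2.64 for DDIT3, 2.52 for UPP1 and 2.52 for SESN2, which are among the 5 highest chosen in the same way. In MDA-MB-231 these genes were not called, and UPP1 had 74.2 and 76.2 TPM there with H2O2 and 73.4 and 81.1 TPM with IgG. Among genes whose difference was called and that the naming rule covers, the 5 lowest differences were −2.16 for HSPA1B, −2.01 for HSPA1A, −1.08 for SCO2, −1.04 for FGFBP1 and −1.01 for HSPA8. HSPA1A had 196 and 196 TPM in MDA-MB-231 with H2O2, against 107 and 116 TPM with IgG, and FGFBP1 was under 1 TPM in all 4 of those libraries. Line and medium cannot be told apart in these differences.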

How the results depend on the processing

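The count of higher calls in HCT116 stayed within 1.5 times of 2180, and that of lower calls of 2457, under the other filters, pseudocounts, scalings and the fit without a variance trend. With only the 4 libraries compared, 791 genes were higher and 561 lower. Fewer samples then estimate the spread. In that fit several lists gave far fewer calls. Lower calls were 3 in place of 16 for cholesterol and fatty acid synthesis and 0 in place of 8 for TRiC and prefoldin. They were 2 in place of 11 for mitochondrial chaperones, proteases and import, and 2 in place of 8 for base excision repair. For the cytosolic Hsp genes they were 9 in place of 15, for ribosome biogenesis 4 in place of 12 and for the pyrimidine genes 1 in place of 7. Higher calls were 0 in place of 12 for ribosomal proteins, 3 in place of 13 for hypoxia-type genes and 6 in place of 15 for long non-coding RNAs. Leaving out 1 library at a time gave 1474 to 2248 higher and 1592 to 2463 lower genes, and for the difference between lines 695 to 1066 higher and 612 to 1402 lower; of the lower ones 752 were left without MDA-MB-231 IgG replicate 1, 724 and 612 without MDA-MB-231 H2O2 replicates 1 and 2, and 831 and 878 without HCT116 H2O2 replicates 1 and 2. Labels give replicate numbers but no pairing, and the deviations of same-numbered H2O2 and IgG libraries of HCT116 correlated at −0.137; with the replicate number as a block 4493 genes were called, and with a crossed pairing 4820. Of 267 named genes called in HCT116, 0 changed sign, 155 stayed called throughout, 65 lost the call only in the fit of 4 libraries, 42 without 1 of those 4 libraries and 5 elsewhere. Calls of at least 2-fold, 132 higher and 7 lower, were 286 and 36 with a pseudocount of 0.1 and 60 and 3 with one of 5; the lower ones were 16 without HCT116 H2O2 replicate 1 and 13 without HCT116 IgG replicate 1. Median-of-ratios scaling and the fit without a variance trend each left 8 lower proteasome calls. Depth is unknown, so the limits of detection of low genes cannot be given.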

Other observations

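Groups outside the lists, chosen after their values were seen, are given as values. Genes of the cell surface and of plasminogen activation were among the higher calls. PLAU, the urokinase, had 52.0 and 54.0 TPM with H2O2, against 22.4 and 19.4 TPM with IgG, and its receptor PLAUR had 135 and 135 TPM, against 59.6 and 58.9 TPM with IgG. EPHA2, an ephrin receptor, rose by 1.39, SDC4, a syndecan, by 1.38, CD55, which shields cells from complement, by 1.59 and ULBP1, a ligand of the killer cell receptor NKG2D, by 1.19 on the log2 scale. SFN, the epithelial 14-3-3 protein and a p53 target, had 662 and 691 TPM with H2O2, against 271 and 306 TPM with IgG. PCK2, the mitochondrial carboxykinase of gluconeogenesis, had 70.7 and 71.9 TPM with H2O2, against 25.6 and 23.6 TPM with IgG.

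Gene classes formed by symbol or annotation are set beside the shares of all genes tested, 15.7% higher and 17.7% lower, without a test. Of 79 symbols of mitochondrial ribosomal proteins 50 fell (63.3%) and 0 rose, with a median log2 fold change of −0.22; MRPS34 had 212 and 191 TPM with H2O2, against 326 and 288 TPM with IgG, and MRPS26 had 104 and 96.3 TPM with H2O2, against 145 and 143 TPM with IgG. Of 462 zinc finger symbols beginning with ZNF 105 rose (22.7%) and 19 fell (4.11%). Of 369 long non-coding RNAs 88 rose (23.8%) and 14 fell (3.79%), and of 264 pseudogenes 58 rose (22%) and 9 fell (3.41%); of 359 symbols with no annotation match 77 rose (21.4%) and 18 fell (5.01%). Among all genes under 5 TPM, 13% were higher and 5.13% lower. At the levels nearer to those of MRPS34 and MRPS26, more of all genes were lower. Between 20 and 100 TPM 16.1% were higher and 24.5% lower, and between 100 and 500 TPM 11.9% and 38.2%.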
